A study of Danio rerio with 12 samples.

Results

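A set of 10 genes of early neural patterning stood high in shield-stage zebrafish embryos that lack Anp32e. They are pax6, fezf2, pou3f1, gbx1, phox2a, neurog1, a copy of foxb1 (ENSDARG00000053650), meis2b, lbx2 and kctd15, 10 of the 22737 genes in the deposited count table. The set was chosen by its counts in null against wild-type embryos, so for these genes that contrast is given as a description with no test. They are tested only between other groups, and whether the crosses among these took part in the choice is not stated. All 10 passed the filter on low counts in each fit, though in the shield fit fezf2 did so only through the null libraries. The symbols pax6, foxb1 and kctd15 each cover more than 1 zebrafish copy. By their neighbours on the chromosome, the pax6 identifier matched pax6b of the RefSeq table for assembly GRCz12tu (17 of 17 named neighbours, against 1 of 17 for pax6a), the foxb1 copy matched foxb1b (18 of 19) and the kctd15 identifier matched kctd15a (16 of 18).

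RNA was counted per gene in 12 libraries, 2 for each of 6 groups. The shield-stage groups, 6 h after fertilization, were anp32e null embryos of strain NHGRI, maternal null and paternal null embryos from crosses between NHGRI and Tu, named for the parent without anp32e, and wild-type embryos of strain Tu. The remaining groups were embryos injected with Anp32e protein and collected at the earlier sphere stage, and libraries labelled as sperm of anp32e null fish, neither with a strain in the labels. Null and wild-type embryos therefore differ in strain as well as genotype, and these cannot be told apart.

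At the shield stage gastrulation has begun and the ectoderm is being divided into epidermis, neural plate and the border between them. Pan-neural factors of the SoxB1 and Zic families mark the future neural plate early, regional homeobox genes then divide it into forebrain, midbrain, hindbrain and spinal cord, and proneural factors start neurons from within it. Border factors such as Tfap2a and the Pax3/7 genes mark the cells that give neural crest and placodes. The Anp32e protein is a chaperone that takes the histone variant H2A.Z out of nucleosomes, and the study concerns nucleosomes that keep DNA methylation off promoters between germline and embryo.

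Total counts ran from 13.5 to 47.7 M per library. The anp32e transcript stood at 81.2 and 80.5 CPM (a gene's count scaled to the library total) in null embryos, 1210 and 1230 CPM in maternal null, 1420 and 1410 CPM in paternal null, and 2280 and 3170 CPM in wild type. In 4 groups the 2 libraries were close to what sampling noise alone gives, and each such pair is in effect 1 sample. Chi-square divided by its degrees of freedom was 1.05 for null, 1.16 for maternal null, 1.17 for paternal null and 1.05 for injected embryos. It was 42.9 for the libraries labelled sperm and 95.2 for wild type. Each comparison was fitted with every library, which enters a near-identical pair as 2 samples, and again with each such pair summed to 1. The words rose and fell are kept for genes with an adjusted p under 0.05 in each of these fits. Higher and lower counts with every library rest on the first fit alone. These p-values measure the spread between the libraries, which may be technical, and in the second fit of the shield samples that spread comes from wild type alone. In bulk RNA, more cells of a type and more RNA per cell cannot be told apart.

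Of the forebrain genes, pax6, a paired homeodomain factor of eye and forebrain, lies on chromosome 7 from 15619409 to 15648344 (all coordinates as in the table, headed Zv10). It stood at 10 and 9.34 CPM in null embryos, 1.08 and 1.02 CPM in maternal null, 0.614 and 0.376 CPM in paternal null, and 1.99 and 2.14 CPM in wild type. Both null libraries were above the other 6, and all 4 libraries of the crosses were below both wild-type libraries. By summed counts null embryos held 4.75 times the wild-type level, 9.27 times that of maternal null and 19.9 times that of paternal null embryos.

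fezf2, a zinc finger factor that patterns the forebrain, lies on chromosome 11 from 19894389 to 19897065. Its levels were 4.94 and 5.8 CPM in null embryos, 0.108 and 0.17 CPM in maternal null, 0.425 and 0.209 CPM in paternal null, and 0.159 and 0.296 CPM in wild type. Only the null libraries stood apart: each of the other 3 shield groups held between 6 and 14 counts over its pair of libraries, against 250 counts in null. The ratio of null to wild type was 25.7. The gene overlaps cep15, which stood at 0.19 ± 0.30 (log2 difference of null from wild type, SE; adjusted p = 0.65) and did not pass.

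The foxb1 copy encodes a forkhead factor of the neural plate and lies on chromosome 7 from 29189909 to 29192092. It stood at 4.67 and 4.29 CPM in null embryos, 0.324 and 0.509 CPM in maternal null, 0.472 and 0.584 CPM in paternal null, and 0.478 and 0.666 CPM in wild type. The 6 libraries other than null overlapped, and null was 8.28-fold above wild type. A pair of other transcripts overlaps this gene, ENSDARG00000095441 and si:dkey-182o15.4, and they were 2.61 ± 0.52 and 2.09 ± 0.38 above wild type on the log2 scale. The first had 2.02 and 1.46 CPM in null and at most 0.518 CPM in any other shield library. The second had 1.09 and 0.849 CPM in null and at most 0.297 CPM elsewhere in the shield libraries. Both passed the filter on low counts only through the null libraries, so nothing is read from their calls. Whether reads of these genes were kept apart by strand is not given in the sources used here.

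pou3f1, a POU-domain factor of neural progenitors, lies on chromosome 16 from 33639085 to 33641955. It stood at 4.67 and 3.11 CPM in null embryos, 1.68 and 0.848 CPM in maternal null, 0.945 and 0.877 CPM in paternal null, and 0 and 0.37 CPM in wild type. The wild-type level rests on 5 counts, all in replicate 2, and the 0 of replicate 1 allows up to 0.119 CPM (3 counts). All 4 libraries of the crosses were above both wild-type libraries and below both null libraries, an order that no other gene of the set had. The ratio of null to wild type was 30.7, with a 95% counting interval of 12.9 to 95.5 that covers counting error only. The fitted log2 difference was 3.31 against wild-type replicate 2 alone and 9.53 against replicate 1 alone, a value that depends on the prior count since that library held none.

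Among the hindbrain genes, gbx1 is a homeobox factor of the anterior hindbrain, on chromosome 24 from 34227248 to 34230351. It was at 55.5 and 57.0 CPM in null embryos, 24.4 and 21.4 CPM in maternal null, 16.0 and 16.9 CPM in paternal null, and 10 and 21.1 CPM in wild type. Both maternal null libraries were above both wild-type libraries, while paternal null lay between the 2 wild-type values. The ratio of null to wild type, 4.04, was the lowest of the 10. The overlapping transcript si:ch211-89l23.2 rose beside it, by 2.44 ± 0.31 on the log2 scale (adjusted p = 0.0021 with every library and 0.01 with pairs summed). As for the foxb1 copy, it is not given whether reads of the overlapping genes were kept apart by strand. These p-values may therefore rest on the counts that chose gbx1.

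phox2a, a homeodomain factor of noradrenergic and hindbrain motor neurons, lies on chromosome 15 from 46976197 to 46984969. Its levels were 3.27 and 3.07 CPM in null embryos, 0.703 and 0.424 CPM in maternal null, 0.567 and 0.209 CPM in paternal null, and 0.318 and 0.813 CPM in wild type. The crosses and wild type overlapped, and null stood 6.46-fold above wild type.

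meis2b encodes a TALE homeodomain partner of Hox and Pbx proteins, on chromosome 20 from 10111868 to 10133202. It stood at 23.9 and 23.7 CPM in null embryos, 0.649 and 0.721 CPM in maternal null, 0.709 and 0.417 CPM in paternal null, and 0.159 and 2.37 CPM in wild type. Null was 25.6-fold above wild type, 34.5-fold above maternal null and 43.0-fold above paternal null embryos. On the log2(CPM + 0.5) scale the wild-type libraries differed by 2.12, and the fitted log2 difference of null from wild type was 3.24 against wild-type replicate 2 alone and 7.31 against replicate 1 alone.

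neurog1, a proneural bHLH factor that starts the first neurons, lies on chromosome 14 from 26405225 to 26406725. It was at 1.56 and 1.32 CPM in null embryos, 0.27 and 0.933 CPM in maternal null, 0.661 and 0.71 CPM in paternal null, and 0.0398 and 0.37 CPM in wild type. The wild-type values rest on 6 counts in all, and 1 of the maternal null libraries lies between them. The ratio of null to wild type was 9.34, and the fitted log2 difference was 1.86 against wild-type replicate 2 alone and 5.13 against replicate 1 alone.

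lbx2, a homeobox gene of the ladybird family, lies on the same chromosome from 5079020 to 5082166. It stood at 5.91 and 6.74 CPM in null embryos, 0.378 and 0.127 CPM in maternal null, 0.756 and 0.626 CPM in paternal null, and 0.239 and 2.0 CPM in wild type. Null was 7.37-fold above wild type and 26.5-fold above maternal null embryos. The log2 difference from wild type was 1.56 against wild-type replicate 2 alone and 4.82 against replicate 1 alone.

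kctd15 encodes a BTB-domain protein known for inhibiting the AP-2 factor Tfap2a at the neural plate border, on chromosome 25 from 20260076 to 20283617. It was at 22.3 and 21.4 CPM in null embryos, 1.19 and 1.1 CPM in maternal null, 0.945 and 1.17 CPM in paternal null, and 1.79 and 2.66 CPM in wild type. As with pax6, all 4 libraries of the crosses were below both wild-type libraries. Null was 10.4-fold above wild type and 19.2- and 20.6-fold above maternal and paternal null embryos.

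**Figure D1:**
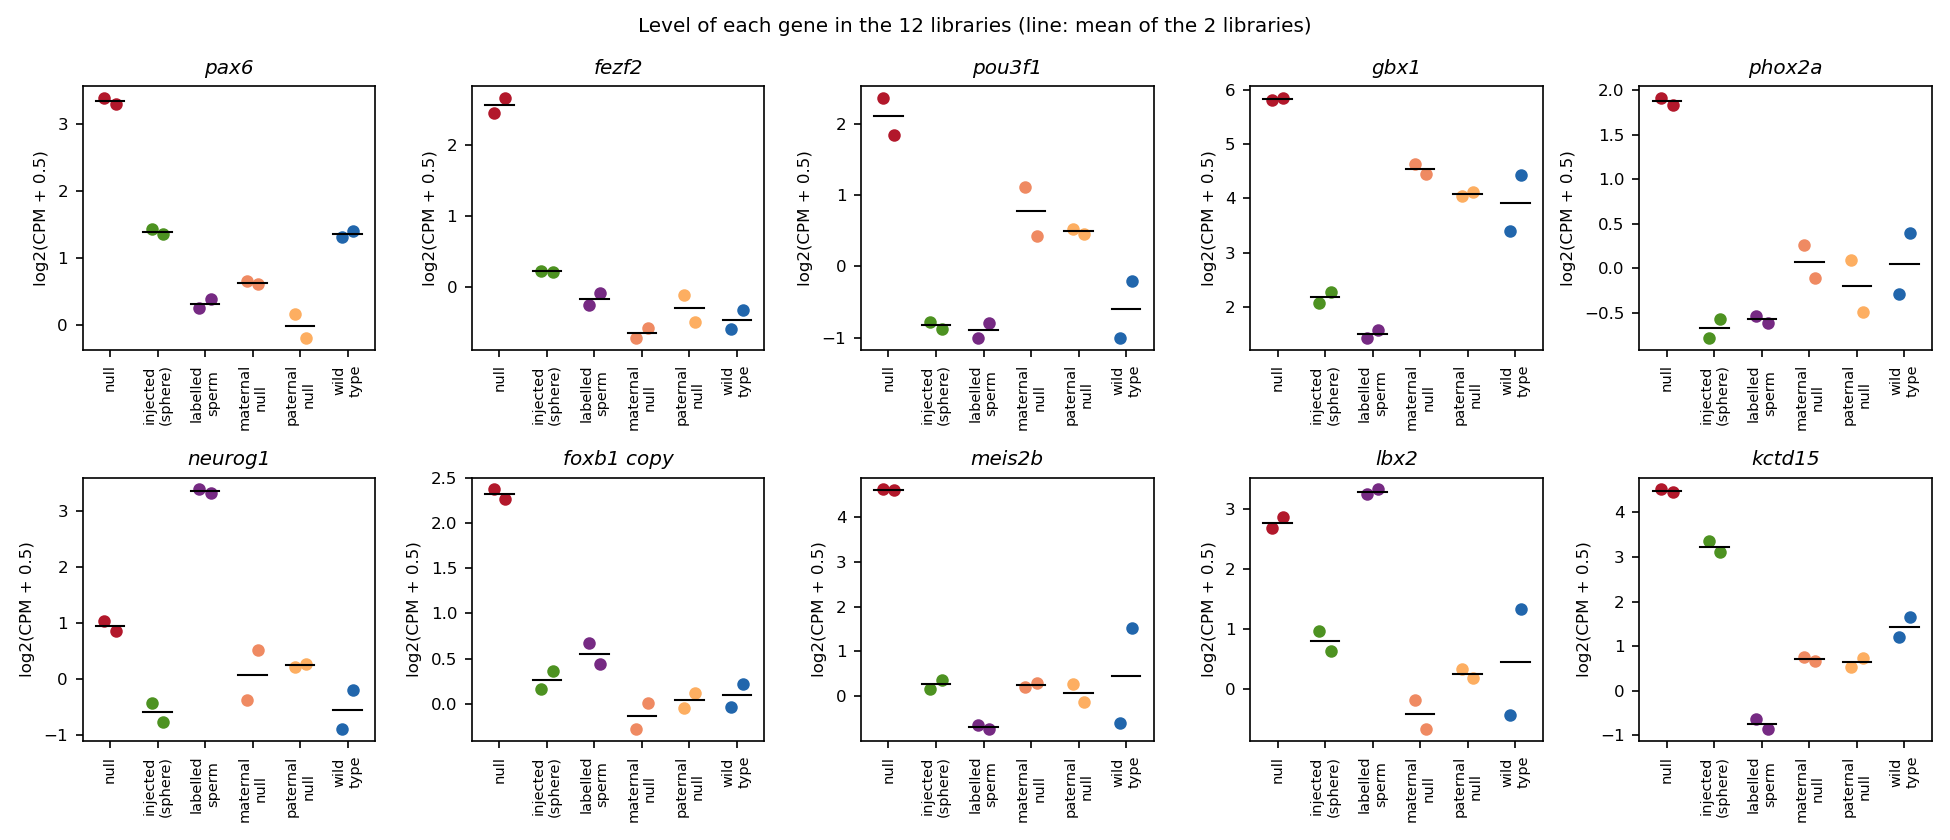
Level of the 10 genes on the log2(CPM + 0.5) scale (vertical axis) in each of the 12 libraries (points, grouped along the horizontal axis; the line is the mean of the pair). The null libraries are the highest shield libraries in each panel, and the libraries labelled sperm are higher still for neurog1 (9.9 and 9.4 CPM) and lbx2 (9.0 and 9.5 CPM).

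Both null libraries were above the other 6 shield libraries for all 10 genes, an order that 21.5% of the 21992 genes with at least 10 shield counts had. Both were above both wild-type libraries for 30.9% of those genes. The choice of the set largely fixed these orders, and nothing is read from them. The wild-type libraries took part in the choice, and whether the crosses did is not stated. By group level both crosses were below wild type for 5 of the 10 genes (pax6, the foxb1 copy, meis2b, lbx2 and kctd15). Both were above it for 3 (pou3f1, gbx1 and neurog1), and they lay on either side of it for fezf2 and phox2a. The share of all genes in these group orders was not counted. Some orders rest on small differences. Paternal null stood at 0.979 times wild type for the foxb1 copy (95% counting interval 0.522 to 1.85) and 0.805 times for lbx2 (0.477 to 1.36). For fezf2 there were 6 counts in maternal null, 14 in paternal null and 8 in wild type. Maternal null stood at 1.11 times wild type for phox2a by summed counts (0.579 to 2.16), while mean CPM was 0.564 and 0.566. For gbx1 both paternal null libraries lay between the wild-type libraries. All 4 cross libraries were below both wild-type libraries for pax6 and kctd15, 2 of 10 genes (11.7% of all genes), and above both for pou3f1 alone, 1 of 10 (9.49% of all genes). The crosses and null share the wild-type libraries as reference, so the values stand side by side without a test. On the log2(CPM + 0.5) scale the median difference from wild type over the 10 genes was 2.28 in null, -0.20 in maternal null and -0.12 in paternal null embryos.

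If each null parent added its own share on this scale, null embryos would stand at the sum of the maternal and paternal differences. They stood above that sum by 4.74 for meis2b, 4.56 for kctd15, 4.09 for pax6, 3.39 for lbx2 and 3.04 for fezf2. The excess was 2.5 for the foxb1 copy, 2.05 for phox2a and 1.11 for gbx1, and it was 0.24 for pou3f1 and 0.09 for neurog1. For these last genes the direction turns in the fit, which has its own prior count in place of that pseudocount. The fitted log2 difference from wild type of pou3f1 was 4.87 in null, 3.21 in maternal null and 2.75 in paternal null embryos. That of neurog1 was 3.18 in null, 1.99 in maternal null and 2.09 in paternal null embryos, so null lay under the sum for both genes. Wild type held 5 counts of pou3f1 and 6 of neurog1. These values use the null and wild-type libraries that chose the set and carry no test. The embryos' own genotype and strain change as well. anp32e stood at 81.2 and 80.5 CPM in null, 1210 and 1230 CPM in maternal null and 1420 and 1410 CPM in paternal null embryos. Effects of the parents and of the embryo itself cannot be told apart.

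**Figure D2:**
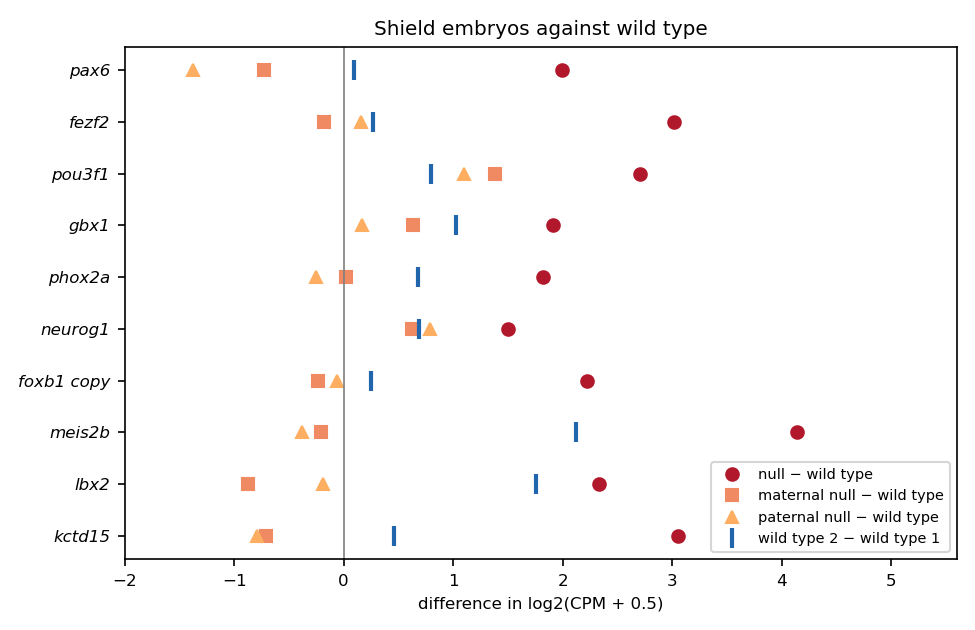
Difference from wild type in log2(CPM + 0.5) (horizontal axis) for each gene (rows) in null, maternal null and paternal null embryos, with the difference of wild-type replicate 2 from replicate 1 as a bar mark. The null differences run from 1.5 to 4.14, while those of the crosses run from -1.38 for pax6 to 1.38 for pou3f1.

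The wild-type libraries themselves were not alike. Replicate 2 was above replicate 1 for all 10 genes, against 33.2% of all genes, and for 46 of 72 other neural genes tested. The log2(CPM + 0.5) difference between them ran from 0.09 for pax6 to 2.12 for meis2b, with a median of 0.69. Ratios to wild type by summed counts give replicate 1 more weight, with 25.1 M counts in all against 13.5 M in replicate 2. As replicate 1 was lower for all 10 genes, these ratios are larger than those of mean CPM would be. For meis2b the wild-type level was 0.931 CPM by summed counts and 1.26 CPM as the mean of the libraries. Marker lists of other tissues moved between these libraries too: the 19 genes of the enveloping layer, the outer epithelium, summed to 6050 CPM in replicate 1 and 2820 CPM in replicate 2, and the 13 organizer genes to 1040 and 563 CPM. Over both wild-type choices the median log2 difference of the set was 2.37 against replicate 2 alone and 4.28 against replicate 1 alone, beside 3.13 against both. For the genes not yet given so, it was 1.32 and 2.62 for gbx1, 1.87 and 3.43 for phox2a, 4.06 and 5.15 for fezf2, 2.66 and 3.36 for the foxb1 copy, 2.94 and 3.74 for kctd15, and 2.08 and 2.42 for pax6, each against replicate 2 and then against replicate 1. Null embryos were higher for every gene against either library.

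The reciprocal crosses compare a null mother with a null father, a contrast other than the one that chose the set. Null fish were of strain NHGRI and wild type of strain Tu, so the strain of each parent changes with its genotype. These cannot be told apart, and each cross is a near-identical pair, in effect 1 sample. None of the 10 genes passed the threshold between maternal null and paternal null embryos (edgeR, 0 of 10 past an adjusted p of 0.05, where 3.66% of 19166 genes were higher and 5.61% lower in maternal null). At an unadjusted p under 0.05 there was 1, pax6, and DESeq2 gave the same counts of 0 and 1. pax6 was 2.15-fold higher in maternal null embryos, a log2 difference of 1.11 ± 0.30 (SE; adjusted p = 0.067, and 1 with pairs summed), with both maternal null libraries above both paternal null libraries. kctd15 differed by 0.13 ± 0.32 and neurog1 by -0.10 ± 0.67. For the scarce transcripts the error was wide: lbx2 stood at -1.48 ± 1.14, fezf2 at -1.08 ± 0.61 and meis2b at 0.33 ± 1.10. As fezf2 entered this fit only through the null libraries, with 6 counts in maternal null and 14 in paternal null, nothing is read from its result. With an SE above 1 on the log2 scale, a 2-fold difference of lbx2 or meis2b was not detectable in this fit. Its spread is estimated over all shield groups, wild type among them. By counting error alone the ratio of maternal to paternal null was 0.346 for lbx2 (95% interval 0.151 to 0.724). For meis2b it was 1.24 (0.703 to 2.22). The ratio was 1.38 for gbx1 (1.25 to 1.52) and 2.15 for pax6 (1.26 to 3.76). Intervals of the remaining genes held a ratio of 1. A lack of calls is therefore not a lack of difference.

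The injected embryos, collected at the earlier sphere stage, were set against the mean of both crosses. In the fit of every library 3 genes were higher (35.9% of 21251 genes were) and 4 lower (32.3% were), and in both fits 1 rose (17.7% of all genes did) and 2 fell (13% did). The border gene kctd15 rose: it stood at 9.68 and 8.18 CPM in injected embryos and was 8.13-fold above the crosses (log2 difference 2.62 ± 0.22, adjusted p = 3.2e-06, and 0.0043 with pairs summed). gbx1 fell, with 3.74 and 4.35 CPM in injected embryos and a log2 difference of -2.66 ± 0.32 (adjusted p = 3.8e-05 and 0.0083). pou3f1 also fell, to 3 counts over both injected libraries, 0.0604 times the level of the crosses with a counting interval of 0.0122 to 0.182 (adjusted p = 0.0014 and 0.023).

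The eye gene pax6 was higher in injected embryos, at 2.2 and 2.05 CPM, with a log2 difference of 1.16 ± 0.21 from the crosses (adjusted p = 0.00065, and 0.079 with pairs summed). fezf2 was higher as well, at 0.665 and 0.653 CPM (1.23 ± 0.39, adjusted p = 0.015 and 0.15). phox2a and neurog1 were lower by every library, at -2.19 ± 0.67 and -2.31 ± 0.66, and missed the threshold with pairs summed (adjusted p = 0.069 and 0.05). Leaving out 1 library also lost the call of fezf2 (either injected library or maternal null replicate 1), phox2a (injected or paternal null replicate 1) and neurog1 (injected or maternal null replicate 2). The foxb1 copy, meis2b and lbx2 did not pass in either fit. These embryos differ from the crosses in stage and protein, and possibly in strain and anp32e genotype, which cannot be told apart. Embryos of the crosses had a parent without anp32e. The 12 oocyte genes summed to 2230 and 2210 CPM in injected embryos, against 271 and 272 CPM in maternal null and 412 and 404 CPM in paternal null embryos, and the part of maternal RNA in these results was not tested.

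The libraries labelled sperm held 2 genes of the set at their highest level in the series. neurog1 stood at 9.9 and 9.4 CPM there, 14.5-fold above the crosses, and rose by 3.81 ± 0.33 on the log2 scale (adjusted p = 1e-06, and 0.00013 with pairs summed). lbx2 stood at 9.0 and 9.5 CPM, 19.6-fold above the crosses, and rose by 4.44 ± 0.49 (adjusted p = 7.9e-06 and 0.00042). kctd15, gbx1 and pou3f1 fell there. kctd15 had 0.147 and 0.0516 CPM (log2 difference -3.40 ± 0.41, adjusted p = 1.5e-05 and 0.00038) and gbx1 had 2.22 and 2.48 CPM (-3.10 ± 0.33, adjusted p = 5.9e-06 and 0.00015). pou3f1 had 3 counts over both libraries, 0.0329 times the crosses with a counting interval of 0.00666 to 0.0992 (adjusted p = 0.00033 and 0.0019).

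In all, 3 of the 10 genes were higher in the libraries labelled sperm and 5 lower in the fit of every library, beside 41% and 40.2% of all genes. In both fits 2 rose (32.6% of all genes did) and 3 fell (33.5% did). The foxb1 copy (0.98 ± 0.26), phox2a (-1.43 ± 0.53) and meis2b (-2.29 ± 0.95) missed the threshold with pairs summed (adjusted p = 0.092, 0.062 and 0.059), and pax6 and fezf2 did not pass in either fit. The calls of phox2a and meis2b were also lost without either library labelled sperm, without replicate 1 of either cross, and for meis2b without maternal null replicate 2. The same libraries held 13500 and 15400 CPM of the 12 oocyte genes, all 12 of which rose against the crosses, so their content goes against a sperm label alone, and the part of this in the 10 genes was not tested. The correlation of neurog1 with the mean of the other 9 genes over the 12 libraries was 0.021 and that of lbx2 0.45, against 0.962 for meis2b, 0.946 for fezf2 and 0.943 for the foxb1 copy. These are descriptions over libraries of which 4 pairs are near-identical.

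**Figure D3:**
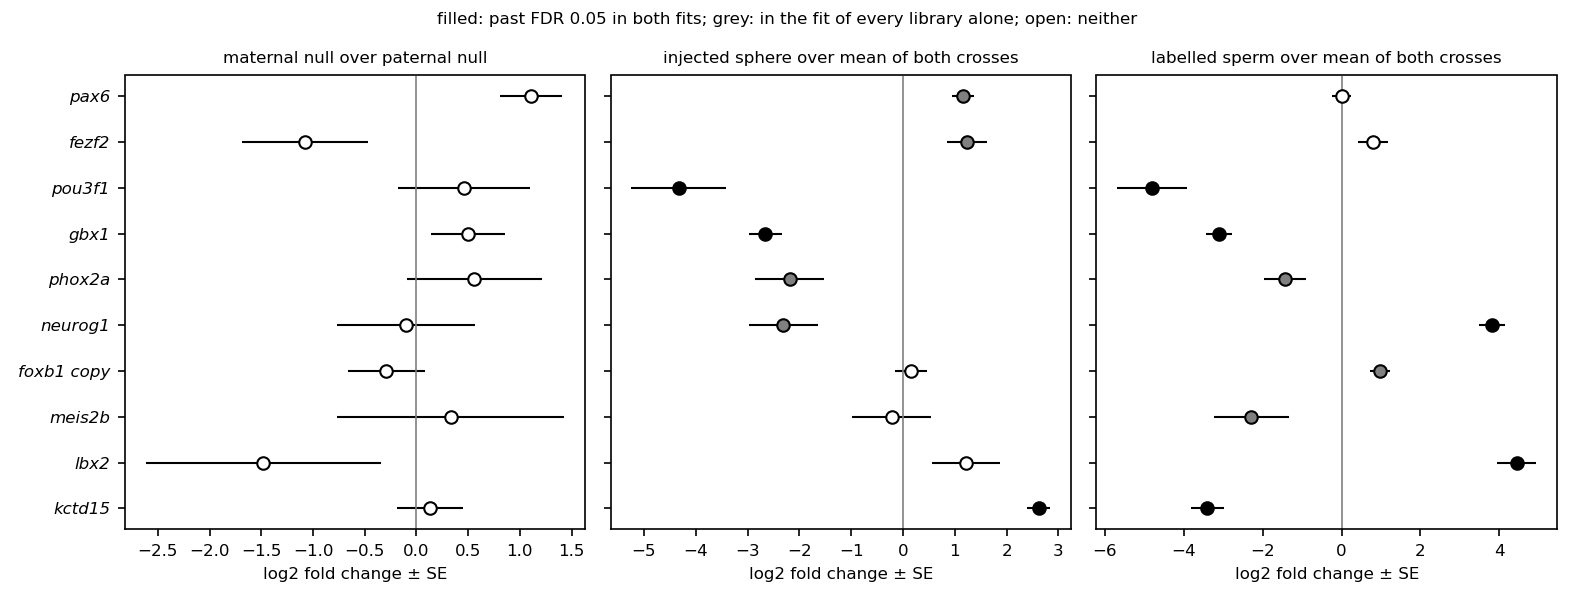
Log2 fold change with its SE (horizontal axis; bars are 1 SE) of each gene (rows) in maternal null over paternal null embryos, injected sphere embryos over the mean of both crosses, and libraries labelled sperm over the same mean. Filled points passed in both fits, grey points with every library alone. None is marked in the first panel, and in the third neurog1 and lbx2 lie at 3.81 and 4.44.

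The set was then placed beside 100 other genes of the table, in 5 lists by role. They are called other neural genes here, with the list of the neural plate border included. Of 72 that passed the filter, 23 were higher in null than in wild-type embryos (16.8% of all genes were) and 9 lower (19.4% of all genes were), with 40 not passing, and in both fits 6 rose (2.45% of all genes did) and none fell (2.85% did). Their median log2 difference was 0.38, against -0.03 over all genes tested. The filter asks for enough counts in 2 libraries of any group, so a gene scarce elsewhere could enter through the null pair alone. For such genes a higher call was partly set by the filter. Of the 6 that rose, foxi3a and wnt8b entered in this way, and how many of the 23 did was not counted. Of the genes tested, msx2a and msx2b of the border list, rx3, irx5 and ascl1b entered so as well, whether called or not. The counts and medians of the lists below include such genes, so the lists are not ranked by them. With no filter 20 of the other neural genes were higher and 10 lower. The list of the neural plate border held 11 higher and 2 lower of 22, with a median of 1.12. Midbrain and hindbrain genes counted 4 higher and 2 lower of 14 (median 0.72), and forebrain and eye genes 5 higher and none lower of 15 (median 0.33). Pan-neural genes counted 3 higher and 3 lower of 14, with a median of -0.07, and proneural genes none higher and 2 lower of 7, with a median of -0.55.

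Of the 6 that rose, 3 are on the border list, though foxi3a among them is not a neural gene. foxi3a, a forkhead gene of ionocyte precursors, stood at 2.26 and 2.22 CPM in null against 0.0796 and 0.296 CPM in wild-type embryos (log2 difference 3.83 ± 0.51). It held 58 and 47 counts in the null libraries and at most 8 in any other shield library. For wnt8b, given below, these were 57 and 23 counts and at most 7. Both genes passed the filter only through the null libraries, so nothing is read from their calls. prdm1, a zinc finger factor needed for neural crest and sensory neurons at the border in zebrafish, stood at 27.9 and 30.4 CPM against 2.31 and 7.25 CPM (2.67 ± 0.52, adjusted p = 0.0089). tfap2a, the AP-2 factor that Kctd15 is known to inhibit, stood at 240 and 235 CPM against 44.3 and 100 CPM (1.71 ± 0.40, adjusted p = 0.017).

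The others were wnt8b, zic1 and otx1. wnt8b, a Wnt ligand of the midbrain region, had 2.22 and 1.08 CPM in null against 0 and 0.518 CPM in wild type (3.15 ± 0.97). zic1, a zinc finger factor of the neural plate, had 7.43 and 8.39 against 0.796 and 2.07 CPM (2.61 ± 0.42, adjusted p = 0.0048). otx1, a homeobox gene of forebrain and midbrain, had 66.1 and 71.3 against 14.6 and 24.0 CPM (1.84 ± 0.28, adjusted p = 0.0037). All 4 cross libraries were below both wild-type libraries for zic1, which stood at 0.703 and 0.721 CPM in maternal null and 0.425 and 0.626 CPM in paternal null embryos. With every library the pan-neural gene sox3 was lower in null embryos (-0.82 ± 0.13, adjusted p = 0.0048, and 0.67 with pairs summed). The proneural-stage gene insm1 (ENSDARG00000053301) was lower by -1.43 ± 0.37 (adjusted p = 0.025, and 0.45 with pairs summed).

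**Figure D4:**
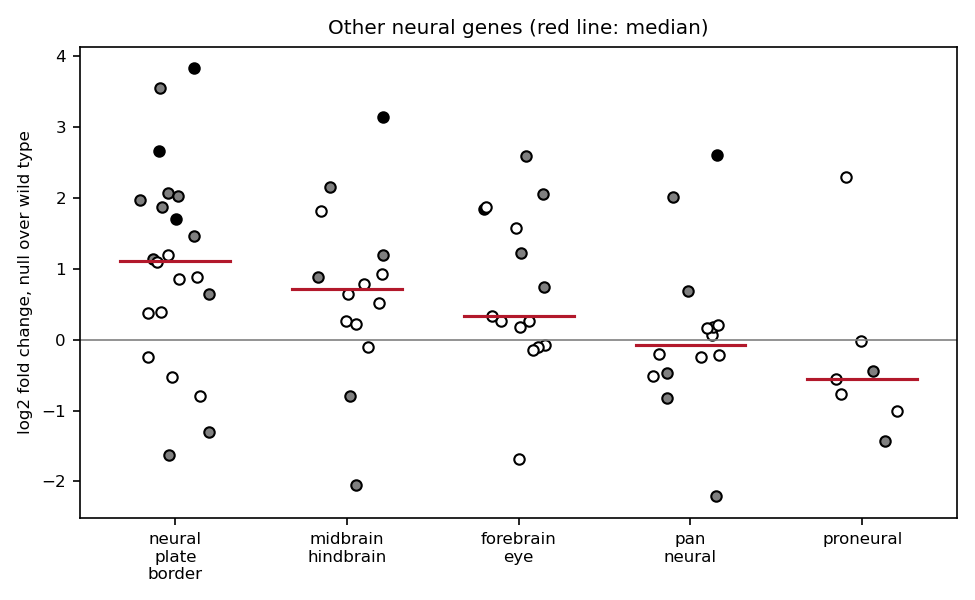
Log2 fold change of null over wild-type embryos (vertical axis) for other neural genes that passed the filter, by list (horizontal axis); the red line is the list's median, filled points passed in both fits and grey points with every library alone. Medians run from 1.12 for the neural plate border to -0.55 for proneural genes, and they include genes that passed the filter only through the null libraries.

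In the crosses fewer of these 72 genes passed. In maternal null against wild-type embryos 2 were higher (3.33% of all genes were) and none lower, irx3 (ENSDARG00000031138) and prdm12, neither past the threshold with pairs summed. In paternal null embryos none was higher (4.7% of all genes were) and 1 of the sox11 copies was lower (2.32% were), which missed the threshold with pairs summed (0.0261% of all genes were lower in both fits). Between the crosses 6 were higher in maternal null embryos (3.66% of all genes were) and none lower: zic5, her5, insm1, prdm12 and both sox9 copies, with log2 differences from 0.80 to 1.72, each at an adjusted p of 1 with pairs summed. All of these comparisons with wild type share its libraries. Without 1 wild-type library more of these genes were called in null, maternal null and paternal null embryos. The balance of higher and lower calls in the crosses changed with the wild-type library kept. The lone wild-type library is then assumed to vary like the other groups, whose pairs are near-identical. Without 1 null library fewer were called in null embryos. The share of all genes called in these fits was not counted, so nothing about neural genes is read from them.

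Of 14 relatives of the set in the table, 8 passed the filter in the shield fit, and 3 were higher (16.8% of all genes were) and none lower (19.4% were) in null embryos. In both fits 2 rose (2.45% of all genes did) and none fell (2.85% did). The list held 4 MEIS genes, relatives of meis2b, of which 2 rose and 2 did not pass. meis1 (ENSDARG00000012078) stood at 25.4 and 23.3 CPM in null against 1.87 and 9.61 CPM in wild-type embryos and rose by 2.14 ± 0.66 (adjusted p = 0.045, and 0.02 with pairs summed). meis3, a MEIS factor of the hindbrain, stood at 10.9 and 12.3 CPM against 1.07 and 4.07 CPM and rose by 2.29 ± 0.56 (adjusted p = 0.02 in each fit). meis1a did not pass, at 2.02 and 2.22 CPM in null and 1.67 and 2.29 CPM in wild-type embryos (0.17 ± 0.26, adjusted p = 0.65). The meis2 identifier ENSDARG00000098240 had 41 counts in null and 6 in wild-type embryos (2.48, adjusted p = 0.066).

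The other foxb1 copy, ENSDARG00000089042 on chromosome 25, stood at 45.4 and 48.1 CPM in null against 18.8 and 23.4 CPM in wild-type embryos and was higher by 1.17 ± 0.19 with every library (adjusted p = 0.0046, and 0.27 with pairs summed). The POU genes pou3f2 and pou3f3a were at 1.24 ± 0.43 and -1.47 ± 0.59 and did not pass (adjusted p = 0.059 and 0.087). The nearest relatives of fezf2, gbx1 and lbx2 were scarce at the shield stage: fezf1 had 0 counts in both null and both wild-type libraries, gbx2 had 10 and 14 counts over the pairs of null and wild-type libraries, and lbx1a had 8 and 13. Neither lbx1b nor pou3f2a passed the filter.

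Genes next to the set on the chromosome were counted as well. Of 24 listed neighbours, the nearest on each side and 4 that overlap a gene of the set, 23 were tested, and 5 were higher and 4 lower in null embryos (16.8% and 19.4% of all genes were). Of the 5 higher ones, 3 are the overlapping transcripts named above, whose reads may not be apart from those of the set. Those that overlap the foxb1 copy also passed the filter only through the null libraries. Among genes that do not overlap, elp4 beside pax6 was lower (-1.91 ± 0.20, adjusted p = 0.00097, and 0.11 with pairs summed) and pcgf1 beside lbx2 was higher (0.86 ± 0.23, adjusted p = 0.029, and 0.57 with pairs summed). The 10 genes lie on 8 chromosomes, with 2 each on chromosomes 7 and 14.

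Markers of other tissues were counted in null against wild-type embryos, where 16.8% of all genes were higher and 19.4% lower with every library, and 2.45% rose and 2.85% fell in both fits. Of 19 enveloping layer genes 15 were higher, 8 of them in both fits, and none lower, and their sum was 12100 and 12100 CPM in null, 5170 and 5180 CPM in maternal null, 15000 and 15000 CPM in paternal null, and 6050 and 2820 CPM in wild-type embryos. Among 14 genes of the yolk syncytial layer, 10 were higher, 6 of them in both fits, and 1 was lower, with sums of 4530 and 4550 CPM in null, 3260 and 3260 CPM in maternal null, 2730 and 2740 CPM in paternal null, and 2090 and 2910 CPM in wild-type embryos. The 12 oocyte genes summed to 118 and 116 CPM in null against 367 and 237 CPM in wild-type embryos, with 10 lower, 4 of them in both fits. Markers of differentiated neurons, 14 genes, summed to 352 and 352 CPM in null against 270 and 322 CPM in wild-type embryos, with 3 higher and 1 lower of 11 tested, and 1 in each direction in both fits. Of 12 germline genes 8 were lower, 3 of them in both fits, and 2 higher, 1 of them in both fits (median log2 difference -0.96). Other lists went both ways: 2 higher and 3 lower of 17 mesoderm genes, 4 and 3 of 15 ventral and epidermal genes, and 3 and 4 of 12 organizer genes. The part of these lists in the levels of the 10 genes was not tested.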

How the data were processed

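The authors deposited raw read counts of total RNA, 1 row per Ensembl gene (stranded TruSeq, Ribo-Zero Gold, per the labels' protocols), with no normalization. Novoalign 2.8 and DESeq2 are named in the submitters' processing notes; their roles, the counter, the annotation and the strand setting are not stated in these notes. The table's lowest maximum over libraries is 10 counts. Identifiers were named by the reference table (20669 of 22737). Counts were tested in edgeR 4.0.16 (R 4.3.3; robust quasi-likelihood F test, TMM, filterByExpr, Benjamini-Hochberg over all genes tested, threshold 0.05): shield comparisons in a fit of 8 libraries (4 residual degrees of freedom), others in a fit of all 12 (6). A second fit summed near-identical pairs (1 and 2 degrees of freedom). The scripts were tested on simulated data. Alternatives were DESeq2 1.42.0, RLE scaling, no filter, a replicate block and each replicate left out. Differences on the log2(CPM + 0.5) scale use that pseudocount. Named genes were the 10, their relatives, other neural genes past both fits, and the 5 genes most like the set over the 12 libraries; others were chosen after their values were seen. Some relatives are not reported here. The set, lists and tests were chosen with earlier results of these data known. Intervals and floors cover counting error only.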

Additional observations from a re-analysis of the deposited data

How the results depend on the processing

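The direction of all 10 genes in null against wild-type embryos held in 8 alternatives, DESeq2 not among them, and the choice of the set largely fixed it. Of 80 such values 60 stayed within the spread between replicates. The 20 that moved were those of every gene without wild-type replicate 1 or without replicate 2. The median log2 difference of the 10 genes, 3.13, became 2.37 without wild-type replicate 1 and 4.28 without replicate 2. The deviations of same-numbered shield libraries had correlations from -0.01 to 0.023 over 6 pairs of groups. Within null and each cross the 2 libraries differ by little more than sampling noise. These correlations therefore cannot show whether same-numbered libraries shared a source. The replicate block left the other counts within 1.5 times of theirs except where given here. With near-identical pairs summed, 3 of the 10 genes passed in injected embryos (7 with every library), 5 in the libraries labelled sperm (8), and 6 other neural genes in null (32), 0 in maternal null (2), 0 in paternal null (1) and 0 between the crosses (6). The replicate block gave 1 other neural gene in maternal null, 0 in paternal null and 2 between the crosses. In paternal null the count was 0 with no filter and 3 with DESeq2. Leaving out 1 library at a time gave 5 to 7 of the 10 genes in injected embryos, 6 to 8 in the libraries labelled sperm and 0 between the crosses. For other neural genes it gave 10 to 66 in null, 0 to 43 in maternal null, 0 to 43 in paternal null and 0 between the crosses, and for relatives 1 to 6 in null (3 with every library). Causes were not tested. Low counts limit pou3f1, neurog1 and fezf2 most, with 5, 6 and 8 wild-type counts.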

Other observations

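The genes whose levels over the 12 libraries were most like the mean profile of the set, of 14151 that reached 5 CPM in some library, were xpo5 (Pearson r = 0.971), hoxb1b (0.97), zic1 (0.965), gabrp (0.961) and zcchc24 (0.957). The correlation is a description over libraries of which 4 pairs are near-identical. hoxb1b, a hindbrain Hox gene, stood at 28.7 and 28.2 CPM in null embryos, 0.865 and 0.636 CPM in maternal null, 1.04 and 1.04 CPM in paternal null, and 0.239 and 3.11 CPM in wild type. gabrp, a GABA receptor subunit gene, stood at 5.33 and 5.99 CPM in null embryos, 0.541 and 0.212 CPM in maternal null, 0.236 and 0.0835 CPM in paternal null, and 0.0398 and 1.04 CPM in wild type. xpo5, the exporter of precursor microRNAs, varied over a far smaller range, with 62.8 and 62.2 CPM in null embryos against 36.7 and 43.0 CPM in wild type.

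Of the POU relatives, pou3f3a had its highest levels outside the shield stage, with 6.11 and 6.75 CPM in injected sphere embryos and 10.7 and 7.54 CPM in the libraries labelled sperm, against 0.27 and 0.212 CPM in maternal null and 0.52 and 0.292 CPM in paternal null embryos. The other foxb1 copy went the other way, with 0 and 1 counts in the libraries labelled sperm.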
